A study of Danio rerio with 6 samples.

Results

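The collagen genes of the zebrafish mid-section were taken from a table of RNA levels as every gene whose listed name begins with col, a type number, the letter a and a chain number. The rule found 27 of 32520 genes, and all 27 had enough reads to be tested. They fell into 12 chains of fibrillar collagens, 3 chains of basement membrane collagens and 12 chains of other types. 26 of the 27 had a lower fitted level in *dgat2sa13945* mutants than in their wild-type siblings, most by a small amount, with a median log2 fold change of -0.20 against -0.01 for all 22762 genes tested. The largest differences were in the single chains *col8a2*, *col9a1a*, *col28a2a*, *col5a3b*, *col28a1a* and *col17a1a*, which stood at 62.6 to 74.9% of the wild-type level. Other chains of types V, VIII, IX and XXVIII among the 27 differed less, from the scarce *col5a3a* at 76.5% to *col5a2a* at 95.1%. The abundant *col9a1b* was at 94.5%. None of the 27 passed an adjusted p of 0.05 in the edgeR comparison of the genotypes, and 0.0132% of all genes did. When the pools were paired by clutch, edgeR again called none, while DESeq2 called *col9a1a*, *col28a2a*, *col5a3b* and *col17a1a*, beside 1.59% of all genes. The rule reads names as written in lower case, so another 30 collagen genes, which the table writes in capitals or lists only by an identifier, are described separately near the end.

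The 6 libraries were made from poly(A)-selected RNA of embryos at 3 days post fertilization (dpf). Each held the mid-sections of 6 embryos, and each of 3 clutches, numbered 2, 3 and 4, gave a pool of homozygous *dgat2sa13945* mutants and a pool of wild-type siblings. The parents were heterozygous for *dgat2sa13945*, a nonsense allele from a chemical mutagenesis screen in the gene for diacylglycerol acyltransferase-2, which makes triacylglycerol. Embryos were first sorted by whether the yolk was opaque or normal and then genotyped from the head and tail, which had been cut away. Opacity does not appear in every homozygote, so the mutant pools stand for opaque mutants, and a chemically induced family may carry other mutations as well. What remained was the yolk sac with its yolk syncytial layer (YSL) and the dorsal musculature, along with whatever skin, notochord, cartilage and connective tissue lay between the cuts. A level is therefore that of a mixture, in which fewer cells of a type and less RNA per cell cannot be told apart.

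Collagens are secreted proteins in which chains wind into a triple helix. Fibrillar collagens assemble into the fibres of skin, tendon, cartilage and the notochord sheath, basement membrane collagens build or anchor the sheet beneath epithelia and around muscle fibres, and the other types sit on fibrils, span membranes or form fine networks. In the young zebrafish, type I collagen comes largely from the skin and from fibroblasts, while types II, IX and XI are made by the notochord sheath and by cartilage.

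Estimated counts summed to 45958700 to 59166600 in a library, and every mutant library was deeper than every wild-type library. The collagen genes took 1.01 to 1.29% of the counts. *dgat2* (ENSDARG00000018846) itself was at 21.7, 9.78 and 20.6 counts scaled to the library total (CPM) in mutant pools 2, 3 and 4 and at 28.3, 15.7 and 4.41 CPM in the wild-type pools, so the nonsense transcript was not lost and its level is no check of the labels. The labelled tissue was present in every library, with 12 muscle markers summing to 88142 to 104096 CPM and 12 markers of the YSL and liver to 11520 to 21117 CPM. Over all genes, edgeR called 3 of 22762. No collagen gene of the 27 lies on chromosome 10 with *dgat2*, going by gene names in the RefSeq table of the assembly GRCz12tu.

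Transcript levels of the collagen genes spanned a wide range. Levels of different genes are compared here in TPM, a unit scaled for transcript length and for the library. The highest were *col1a1a* (ENSDARG00000012405), an alpha chain of type I collagen, at a mean of 334.8 TPM over the 6 libraries, and *col2a1a* (ENSDARG00000069093), the type II chain of cartilage and notochord sheath, at 334.6 TPM. The difference between these 2 is smaller than their spread over libraries. *col9a1b*, a chain of the type IX collagen that coats type II fibrils, followed at 248 TPM, and *col1a2* and *col1a1b*, the other type I chains, at 196 and 193 TPM. Together these 5 genes made up 62.2% of the TPM of the 27. Below them, the type IX, XI, V, IV and XVIII chains *col9a2*, *col11a1a*, *col9a3*, *col11a2*, *col5a2a*, *col4a5* and *col18a1a* ranged from 133 to 40.7 TPM. At the bottom, *col5a3a* and *col28a1b* had means of 0.246 and 0.0590 TPM and stayed under 1 TPM in every library. 16 of the 27 were above the 90th percentile of all tested genes and 22 above the median, so that collagen transcripts were mostly abundant in this tissue. In each library the fibrillar class held 63.3 to 66.7% of the collagen TPM, the basement membrane class 4.42 to 4.94% and the other types 28.6 to 32.2%.

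**Figure D1:**
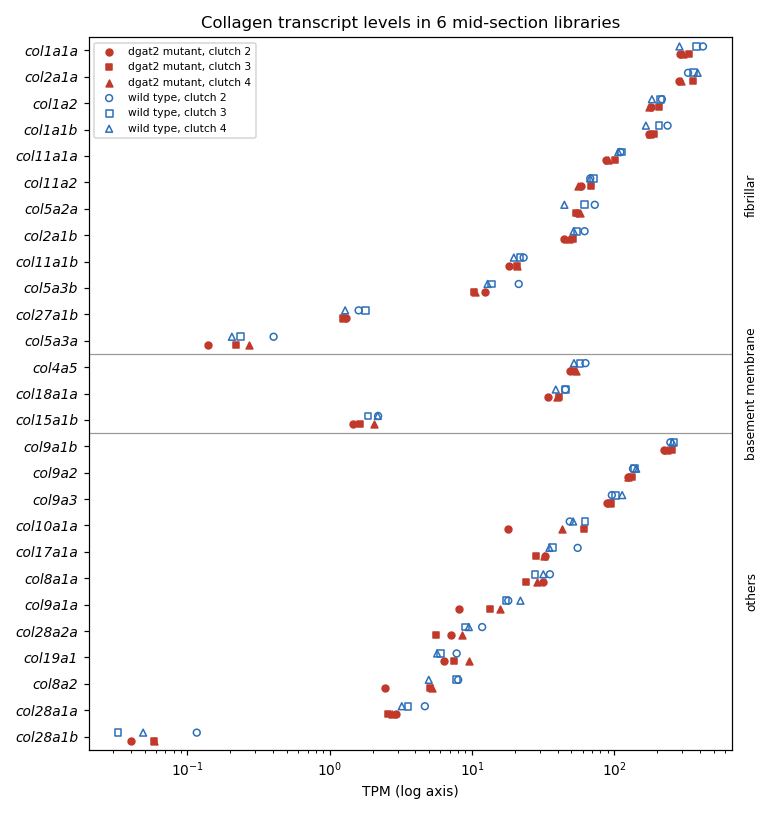
Level of each of the 27 collagen genes in TPM on a log axis, with 1 point per library, filled red for *dgat2* mutant pools and open blue for wild-type pools, and the marker shape giving the clutch. Genes run from 334.8 TPM for *col1a1a* to 0.0590 TPM for *col28a1b* in the mean over libraries, and the genotypes differ far less than the genes do.

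The first comparison was of the 3 mutant with the 3 wild-type pools, gene by gene. 6 collagen genes had an unadjusted p under 0.05 and all 6 were lower in mutants, where 1.99% of all tested genes were lower and 3.21% higher at that threshold. The 26 genes with a log2 fold change below 0 compare with 51.8% of all genes. The pools of the genotypes did not overlap in CPM for 8 collagen genes, each lower in all mutant pools than in any wild-type pool. That pattern held for 4.65% of all genes, and the opposite for 5.14%. The genes are not independent of each other, since chains of a collagen can be made by the same cells. The smallest adjusted p was 0.480, for *col28a2a*, in the edgeR quasi-likelihood test with Benjamini-Hochberg adjustment over all tested genes. DESeq2 also called 0 of the 27, where it called 0.669% of all genes, and 6 again were lower at an unadjusted p under 0.05, beside 1.66% of all genes. A block for the clutch left edgeR at 0 called, where 0.338% of all genes were, and at 7 with an unadjusted p under 0.05, beside 3.05%. The block made the SE smaller for 23 of the 27, and the smallest adjusted p in edgeR was then 0.113, for *col28a2a*. SEs, intervals and adjusted p-values given below for single genes are from the edgeR fit without the block unless stated. DESeq2 with that block called 4, *col9a1a*, *col28a2a*, *col5a3b* and *col17a1a*, at adjusted p-values of 0.00249, 0.00647, 0.00694 and 0.0315, where it called 1.59% of all genes, and with transcript length offsets as well it called the first 3 of these, beside 1.61%. The call of these genes thus depended on the test. The 6 genes with an unadjusted p under 0.05 became 13 without the mutant pool of clutch 3 (2.27% of all genes lower), and 3 without the mutant pool of clutch 4 (1.69%) or the wild-type pool of clutch 2 (2.49%). The median of the 27 ranged from -0.31 without the mutant pool of clutch 3 to -0.13 without that of clutch 4. For 22 of the 27 the 95% interval of the fold change lay within a log2 of -1 and 1.

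**Figure D2:**
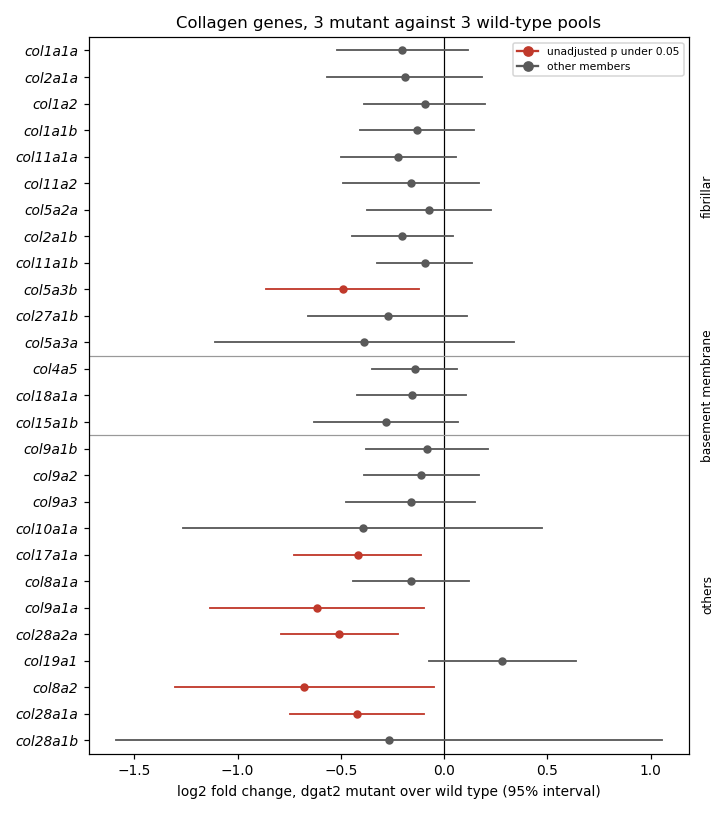
Log2 fold change of each collagen gene, mutant over wild type, with its 95% interval from edgeR, grouped by class. Red marks the 6 genes with an unadjusted p under 0.05. 26 of the 27 points lie below 0, and most intervals cross it.

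Among the fibrillar collagens all 12 chains had a log2 fold change below 0, with a median of -0.20, and 1 had an unadjusted p under 0.05. That gene was *col5a3b* (ENSDARG00000101816), a chain of type V collagen, which helps to start and to thin type I fibrils. It was at 77.1, 67.9 and 58.998 CPM in mutant pools 2, 3 and 4, and at 118, 86.2 and 82.3 CPM in their siblings. Every mutant pool was thus below every wild-type pool. The log2 fold change was -0.49 (SE 0.16, adjusted p = 0.817 in edgeR with Benjamini-Hochberg adjustment), which is 71.2% of the wild-type level (95% interval 55.1 to 92.0%). *col5a3a*, its paralog, differed in the same direction by a log2 of -0.39 but from only 58 to 132 counts in a library, with an interval of -1.11 to 0.34. *col5a2a*, the main type V chain of the 27, was at 319 ± 14.2 CPM in mutants and 335 ± 56.0 CPM in wild type (SD, n = 3), a log2 fold change of -0.07. As a share of the TPM of these type V chains, *col5a2a* was 83.2 ± 1.42% in mutants and 78.7 ± 2.57% in wild type (exact two-sided permutation p = 0.1, the smallest that 3 pools against 3 can give). The pools did not overlap, but by a very narrow margin. The lowest mutant share was 81.642%, in clutch 2, and the highest wild-type share 81.639%, in clutch 3.

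The type I chains carried the most RNA of the fibrillar class and differed little. *col1a1a* had 1831, 2349.9 and 1776 CPM in mutant pools 2, 3 and 4, and 2356, 2493 and 2010.4 CPM in their siblings. It was lower in the mutant pool of each clutch, but the genotypes overlapped because the mutant pool of clutch 3 exceeded the wild-type pool of clutch 4. The log2 fold change was -0.20 (SE 0.14). Those of *col1a1b* and *col1a2* were -0.13 and -0.09. The proportions of the chains overlapped or lay close together, with *col1a1a* at 62.9 ± 0.718% of the 2 alpha1 paralogs in mutants and 63.9 ± 0.658% in wild type (exact permutation p = 0.2), and *col1a2* at 27.7 ± 0.896% and 26.7 ± 2.04% of the type I TPM (exact permutation p = 0.7).

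*col2a1a* gave 1879.5, 2479 and 1754 CPM in mutants and 1938, 2369.6 and 2671 CPM in siblings, again in the order of clutches 2, 3 and 4. The difference came from clutch 4, since the genotypes lay close together in clutches 2 and 3. Its log2 fold change of -0.19 (SE 0.16) turned to 0.02 when clutch 4 was left out. Its paralog *col2a1b* (ENSDARG00000011407) was at 264, 320.0 and 259 CPM in mutants against 325, 322 and 322 CPM in siblings. The wild-type pools agreed closely, and the mutant pool of clutch 3 reached almost the same level, so the groups were separate by a narrow margin, with a log2 fold change of -0.20 (SE 0.11). Of the type XI chains, which co-assemble with type II collagen in cartilage fibrils, *col11a1a* was at 731 ± 100.3 CPM in mutants and 852 ± 64.0 CPM in wild type (SD, n = 3), a log2 fold change of -0.22, and *col11a2* and *col11a1b* had fold changes of -0.16 and -0.09. *col27a1b* (ENSDARG00000099930), a fibrillar collagen of cartilage and the notochord, was scarce but separate, at 5.42, 5.59 and 4.65 CPM in mutants and 5.88, 7.397 and 5.64 CPM in siblings. The gap between the highest mutant and the lowest wild-type pool was small beside the spread, and the log2 fold change was -0.27 (SE 0.17).

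The 3 basement membrane collagens that met the naming rule were each lower in the mutant pool of every clutch, though by little. That held for 14.3% of all genes, and none of the 3 had an unadjusted p under 0.05. The median log2 fold change was -0.16. *col4a5* (ENSDARG00000052063), a chain of the type IV network that forms the scaffold of basement membranes, was at 368, 400.4 and 360.5 CPM in mutant pools 2, 3 and 4 and at 414, 425 and 406 CPM in siblings. The groups did not overlap, and the log2 fold change of -0.14 (SE 0.09) corresponds to 90.6% of the wild-type level (95% interval 78.5 to 104%). *col18a1a* (ENSDARG00000036558), the multiplexin whose carboxyl end is the source of endostatin, was at 218, 275 and 228 CPM in mutants and 257, 289 and 259 CPM in siblings. Here the mutant pool of clutch 3 exceeded the wild-type pools of clutches 2 and 4, so the separation held only within clutches. *col15a1b*, the related type XV multiplexin, was at 8.45 ± 1.103 CPM in mutants and 10.3 ± 1.23 CPM in wild type (SD, n = 3), a log2 fold change of -0.28. In TPM the 2 genes with the higher levels were slightly above the wild-type pool in clutch 4, where the median gene was also higher by a log2 of 0.19.

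The other types held 5 of the 6 collagen genes with an unadjusted p under 0.05 and the single gene with a fold change above 0. Their median log2 fold change was -0.33. *col28a2a* (ENSDARG00000076321) encodes a chain of type XXVIII collagen, which in the mouse lies around the glia of peripheral nerves. It was at 39.9, 32.6 and 42.5 CPM in mutant pools 2, 3 and 4 and at 58.2, 49.8 and 55.4 CPM in their siblings, with a clear gap between the groups. The log2 fold change was -0.51 (SE 0.12, adjusted p = 0.480 in edgeR with Benjamini-Hochberg adjustment), or 70.4% of the wild-type level (95% interval 57.8 to 85.7%). *col28a1a* (ENSDARG00000077084), another chain of this type, was at 17.7, 15.8 and 14.7 CPM in mutants and 24.999, 21.1 and 18.4 CPM in siblings. The groups were again separate, with a log2 fold change of -0.42 (SE 0.14, adjusted p = 0.824 in edgeR with Benjamini-Hochberg adjustment). *col28a1b* had 6 to 18 counts in a library, too few to show a difference of this size.

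*col17a1a* (ENSDARG00000069415) encodes the transmembrane collagen that ties basal skin cells to the basement membrane in hemidesmosomes. It stood at 177, 162 and 157 CPM in mutant pools 2, 3 and 4 and at 266, 198 and 199 CPM in their siblings. The wild-type pool of clutch 2 was far above the rest, yet the groups did not overlap and the mutant pool was lower in every clutch. The log2 fold change was -0.42 (SE 0.13, adjusted p = 0.808 in edgeR with Benjamini-Hochberg adjustment), or 74.9% of the wild-type level (95% interval 60.5 to 92.7%). Its scarcer paralog *col17a1b*, outside the naming rule, had a fold change of -0.23 (SE 0.17). The pools of *col17a1b* overlapped, and its difference in clutch 4 was 0.20.

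Type IX collagen, whose chains are FACITs (collagens that bind to the surface of fibrils), was uneven. *col9a1a* (ENSDARG00000073699) was at 24.3, 42.3 and 42.6 CPM in mutant pools 2, 3 and 4 and at 47.5, 51.6 and 68.4 CPM in their siblings. The mutant pool of clutch 2 was the lowest, and no mutant pool reached a wild-type pool. Its log2 fold change was -0.62 (SE 0.23, adjusted p = 0.882 in edgeR with Benjamini-Hochberg adjustment). Fitted with the clutch block it was -0.64 (SE 0.14, adjusted p = 0.151 in edgeR with Benjamini-Hochberg adjustment). The far more abundant paralog *col9a1b* was at 717 ± 94.3 CPM in mutants and 758 ± 83.7 CPM in wild type (SD, n = 3), a log2 fold change of -0.08. *col9a2* and *col9a3*, the partner chains, had fold changes of -0.11 and -0.16. Without clutch 4 the fold changes of *col9a1b* and *col9a2* turned to 0.05 and 0.04, whereas *col9a1a* stayed between -0.79 and -0.40 whichever pool or clutch was left out. *col9a1a* made up 4.90 ± 1.38% of the TPM of the *col9a1* pair in mutants and 6.94 ± 0.847% in wild type, with an overlap of the pools (exact two-sided permutation p = 0.2). Reads shared between paralogs are divided by estimation, which makes such shares less certain.

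The short-chain collagens build hexagonal networks. *col8a2*, known in mammals from the basement membrane beneath the corneal endothelium, was at 8.34, 17.9 and 16.1 CPM in mutant pools 2, 3 and 4 and at 23.96, 26.1 and 17.6 CPM in their siblings. It was lowest by far in the mutant pool of clutch 2, and the groups overlapped. The log2 fold change was -0.68 (SE 0.27), which is 62.6% of the wild-type level with a broad 95% interval of 40.6 to 96.5%. It ranged from -0.93 without clutch 4 to -0.36 without clutch 2, and was -0.41 without the mutant pool of clutch 2. *col10a1a*, a marker of hypertrophic cartilage and of bone-forming cells, was at 52.0, 186 and 111 CPM in mutants and at 125, 178 and 155 CPM in siblings. The mutant pool was below its siblings in clutches 2 and 4 and slightly above them in clutch 3. Its fold change of -0.39 ranged from -0.91 to -0.04 as pools and clutches were left out in turn, with the latter value without the mutant pool of clutch 2 and the former without that of clutch 3. Fitted with a clutch block, the value became -0.56, and this was the gene that brought the number with an unadjusted p under 0.05 to 7 (adjusted p = 0.530 in edgeR with Benjamini-Hochberg adjustment). *col8a1a*, which in zebrafish serves the notochord sheath, had a fold change of -0.16.

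*col19a1* (ENSDARG00000096073), a FACIT of type XIX, was alone in having a fold change above 0. It was at 7.30, 9.04 and 9.75 CPM in mutant pools 2, 3 and 4 and at 7.89, 6.80 and 6.78 CPM in their siblings. The mutant pool was higher in clutches 3 and 4 and lower in clutch 2. The log2 fold change was 0.28 (SE 0.16). A second identifier that carries the same name in the reference gene list, ENSDARG00000076163, had a fold change of 0.02.

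**Figure D3:**
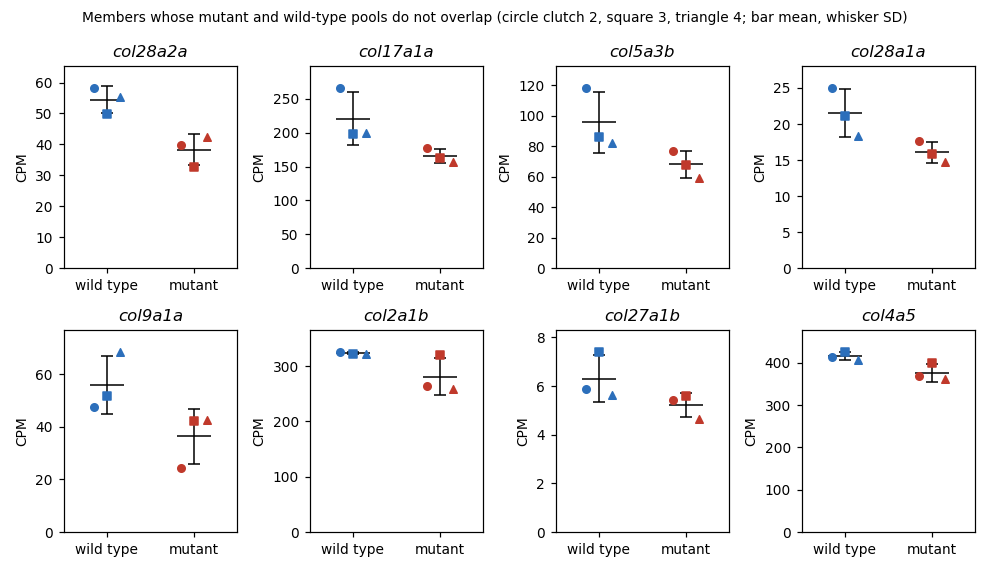
The 8 collagen genes whose mutant and wild-type pools do not overlap, in CPM with the axis starting at 0, as points per pool (circle for clutch 2, square for clutch 3, triangle for clutch 4) with the mean and SD. The gap is wide for *col28a2a*, between 42.5 and 49.8 CPM, and narrow for *col2a1b*, between 320.0 and 322 CPM.

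Measured in TPM in place of CPM, 9 collagen genes were separate between the genotypes, all lower in mutants, where 4.67% of all genes were. 6 of them were among the 8 separate in CPM, and the other two of the 8, *col4a5* and *col27a1b*, overlapped in TPM.

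The second comparison was made within each clutch, mutant pool against wild-type sibling pool, with 1 pool of each and so without a test. Of the 27 genes, 23 were lower in the mutant pool of clutch 2, 18 in clutch 3 and 23 in clutch 4, beside 49.6, 50.3 and 50.9% of all genes. The median log2 CPM differences were -0.23, -0.07 and -0.31, so that clutch 3 showed the smallest difference. 14 genes were lower in all 3 clutches and 0 were higher in all 3, where 14.3% of all genes were lower throughout and 14.6% higher. The 14 comprised 6 of the 12 fibrillar chains, all 3 basement membrane chains and 5 of the 12 others. By class, the medians for clutches 2, 3 and 4 were -0.19, -0.02 and -0.28 for the fibrillar collagens, -0.23, -0.09 and -0.18 for those of the basement membrane, and -0.52, -0.07 and -0.36 for the other types.

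Medians by type are given for each clutch as a description. The 9 chains of types II, IX and XI, the collagens of cartilage and notochord sheath, had medians of -0.04 and 0.01 in clutches 2 and 3. There 6 and 4 of the 9 were lower, with ranges from -0.96 to 0.07 and from -0.29 to 0.06. In clutch 4 all 9 were lower, with a median of -0.45 and a range from -0.68 to -0.14. The 3 type I chains had medians of -0.25, -0.03 and -0.18. The 15 chains of all remaining types had medians of -0.50, -0.11 and -0.28, the lowest of these in clutch 2, although not every chain was lowest there. The 4 chains of types XVII and XXVIII were among these, with medians of -0.57, -0.35 and -0.33. These types do not form a structural class, and they include 3 of the 6 genes with an unadjusted p under 0.05. Their low medians are therefore no result apart from those genes. The mutant pool of clutch 4 held the lowest value of 15 of the 27 genes and that of clutch 2 the lowest of another 7, whereas the wild-type pool of clutch 2 held the highest of 9.

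**Figure D4:**
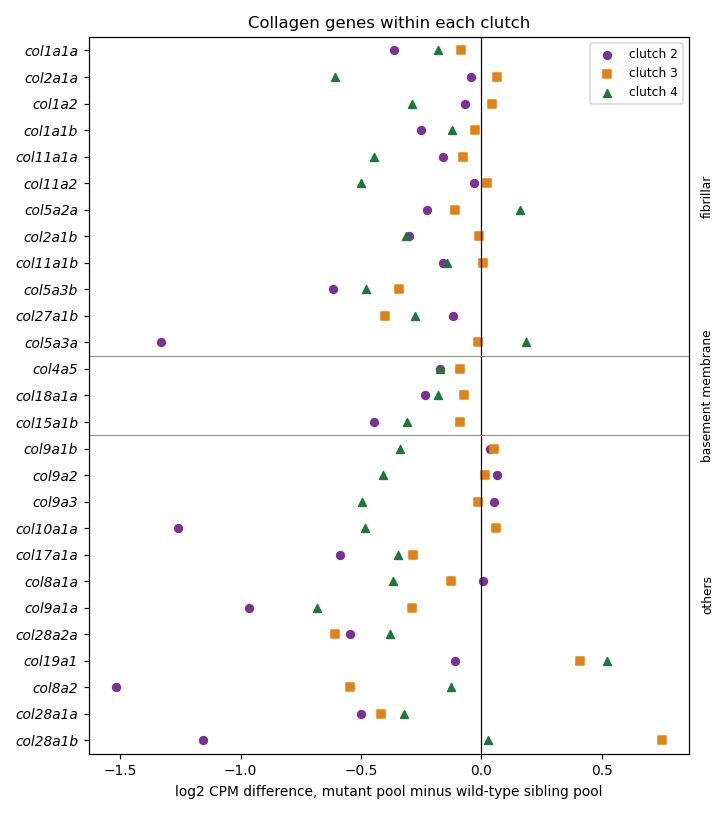
Log2 CPM difference between the mutant pool and the wild-type sibling pool for each collagen gene, with a purple circle for clutch 2, an orange square for clutch 3 and a green triangle for clutch 4. The orange squares lie closest to 0, with a median of -0.07, and the green triangles of the type II, IX and XI chains all lie below it, from -0.68 to -0.14.

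Summed over genes, the collagen transcripts gave 1839, 2118 and 1929 TPM in mutant pools 2, 3 and 4 and 2342, 2272 and 2098 TPM in their siblings. The mutant total was lower in each clutch, and the highest mutant pool lay just above the lowest wild-type pool. The log2 ratio of the mean totals was -0.19, and -0.17 on the CPM scale. TPM depends on the rest of the library, and the median log2 TPM difference of all tested genes was -0.17, -0.08 and 0.19 in the 3 clutches. The collagen sums had log2 ratios of -0.35, -0.10 and -0.12. These were below that shift in each clutch, but only slightly in clutch 3, at -0.101 against -0.083. A sum follows its most abundant genes, whereas the shift is a median over genes, so the measures differ. The fibrillar class had ratios of -0.37, -0.10 and -0.11 and the other types -0.29, -0.09 and -0.17. Of the 3 class sums, only that of the other types was separate between the genotypes, at 547, 632 and 600.3 TPM in mutant pools and 669, 675 and 676 TPM in wild-type pools. On the CPM scale that sum overlapped, at 1830.3, 2189.5 and 1789 CPM against 2009, 2229 and 2355 CPM. The basement membrane class had -0.38, -0.16 and 0.03, the last above 0 in TPM but below the shift of its clutch, and -0.18 in that clutch on the CPM scale.

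The 30 collagen genes outside the naming rule were examined in the same fit. 11 are written in capitals and 19 are listed by identifier and were named from a reference gene list. 19 of the 30 had a fold change below 0, with a median of -0.13, and 4 had an unadjusted p under 0.05, all lower, where 51.8% of all genes were below 0 and 1.99% were lower at that p. None was called in edgeR, and in CPM 7 were separate and lower and 1 separate and higher, beside 4.65 and 5.14% of all genes. *col7a1* (ENSDARG00000021720), the chain of the anchoring fibrils that fasten the epidermal basement membrane to the dermis, was at 28.2, 33.6 and 29.1 CPM in mutants and at 41.6, 41.3 and 40.4 CPM in siblings. In CPM the wild-type pools were nearly equal and all above the mutants, whereas in TPM they spread from 6.36 to 11.7 and overlapped the mutants, at 5.85 to 7.63. Its log2 fold change was -0.44 (SE 0.10, adjusted p = 0.428 in edgeR with Benjamini-Hochberg adjustment). A *col7a1*-like gene (ENSDARG00000069692) had a fold change of -0.44, and all 3 type VII genes were lower in every clutch. Of the 9 basement membrane chains among the 30, 7 were below 0. The type IV chains *COL4A1* and *COL4A2* were above it, at 0.08 and 0.06, with differences of 0.51 and 0.74 in clutch 4. In clutches 2 and 3 both were lower in the mutant pool, by -0.13 and -0.07 for *COL4A1* and -0.23 and -0.18 for *COL4A2*. *col28a2b* (ENSDARG00000100781), the paralog of *col28a2a*, was at 5.72, 3.79 and 3.63 CPM in mutants and at 8.61, 6.595 and 7.82 CPM in siblings. It had the largest fold change of the 30, -0.81 (SE 0.21, adjusted p = 0.550 in edgeR with Benjamini-Hochberg adjustment), and was lower in all 3 clutches. *col14a1b*, a FACIT, was at 33.8 ± 2.17 CPM in mutants and 45.2 ± 5.50 CPM in wild type (SD, n = 3), a fold change of -0.42. In the other direction, *col6a4b* had the highest fold change, 0.34, with differences of 0.29, -0.07 and 0.98 in clutches 2, 3 and 4. *col23a1b*, the 1 separate and higher gene, was at 0.26 and *col23a1a* at 0.14. These 2 were higher in all 3 clutches, where 10 of the 30 were lower in all 3, beside 14.6 and 14.3% of all genes. The 5 type VI chains, which form beaded filaments around muscle fibres and other cells, had 1 of 5 below 0 and a median of 0.07, a difference from the 27 that was not tested. The medians of these chains in clutches 2, 3 and 4 were -0.06, -0.01 and 0.30, with 3, 3 and 0 chains lower in the mutant pool. In clutch 4 only 13 of the 30 were lower in the mutant pool, beside 23 of the 27. These genes were set apart by how their names are written and not by their values.

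The genes that act on collagens were read from lists, and no member of any of them was called in edgeR with or without the block. Of 33 tested genes for collagen folding, modification and export, 2 were lower and 1 higher at an unadjusted p under 0.05, beside 1.99% lower and 3.21% higher of all genes, with a median log2 fold change of -0.06. Counts this small cannot be set apart from that background. *creb3l1*, a transcription factor of the endoplasmic reticulum that in the mouse activates type I collagen in bone, was at 12.3, 13.2 and 12.99 CPM in mutant pools 2, 3 and 4 and at 14.8, 19.4 and 20.8 CPM in their siblings. The groups did not overlap, with a fold change of -0.51 (SE 0.14, adjusted p = 0.656 in edgeR with Benjamini-Hochberg adjustment). *kdelr2b*, a receptor that returns chaperones to the endoplasmic reticulum, had a fold change of 0.33. For propeptide cleavage and cross-linking 0 of 19 passed that threshold and for degradation 0 of 12. For receptors 1 of 12 did, the integrin alpha2 gene *itga2.3* at -0.46. These counts too are small beside the 1.99% lower and 3.21% higher of all genes and cannot be set apart from them. The medians of these lists were -0.10, -0.03 and -0.11. For cleavage and cross-linking the 2 genes with the smallest p were *loxl3a* at 0.49 and *pcolcea* at -0.28. For degradation they were *pepd* at 0.30 and *mmp13a* at 0.59, and for receptors the second was *cspg4* at -0.29.

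Among 18 tested partners of collagens in the basement membrane the median was 0.00, and 1 gene had an unadjusted p under 0.05. This was *lamb4*, a laminin beta chain, at 14.8, 16.1 and 14.8 CPM in mutants and 19.7, 21.5 and 22.2 CPM in siblings. The groups were well separated, and the fold change was -0.47 (SE 0.11, adjusted p = 0.416 in edgeR with Benjamini-Hochberg adjustment). *lama3*, with the next smallest p of these partners, had a fold change of 0.40. Of 23 partners in the interstitial matrix, 19 were below 0 with a median of -0.14, beside 51.8% of all genes below 0. At an unadjusted p under 0.05, 2 of them were lower and 1 higher, beside 1.99% lower and 3.21% higher of all genes. *vcanb*, a versican, and *matn1*, a matrilin of cartilage, had fold changes of -0.34 and -0.48, and *matn3b*, another matrilin, 0.27.

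Markers of the cell types that make collagen were placed beside these values, since the samples are mixed. Of 13 genes listed as basal epidermis markers, which include *tp63*, *krt5* and *itgb4*, 10 were below 0 with a median log2 fold change of -0.21. Of the same 13, 5 were separate and lower, and 9 were lower in all 3 clutches. Whether each of the 13 marks basal cells alone was not tested. The shares of all genes were 51.8% below 0, 4.65% separate and lower, and 14.3% lower throughout. Their summed level was 7307 to 9080 CPM in mutants and 8798 to 10853 CPM in wild type, and none was under 1 CPM in any library. These 10 had the same direction as *col17a1a* and *col7a1*, which basal skin cells are known to make. *epgn*, *krt91* and *krt94* had fold changes of 0.07, 0.03 and 0.00. By the sign of the fold change alone, that direction was not particular to epidermis. Below 0 were also 10 of 11 chondrocyte, 8 of 9 notochord, 7 of 8 neural, 10 of 13 fibroblast and tendon and 9 of 12 muscle markers. The counts were 6 of 12 for YSL and liver, 5 of 9 for osteoblast, 4 of 8 for endothelium and 0 of 6 for erythrocyte markers. Lower in all 3 clutches were 5 of the chondrocyte, 1 of the notochord and 0 of the neural markers. So were 5 of the fibroblast and tendon and 2 of the muscle markers. In each of these lists 0 or 1 marker was separate and lower. All 8 neural markers were lower in clutch 4 and 0 in clutch 3. The 3 actinodin genes of the fin fold (*and1*, *and2* and *and3*) also had fold changes below 0, with a median of -0.45. *and2*, which encodes a protein of the fibres that stiffen the fold, was at 199, 227 and 219 CPM in mutants and at 324, 309 and 267 CPM in siblings, separate between genotypes (adjusted p = 0.416 in edgeR with Benjamini-Hochberg adjustment).

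For types II, IX and XI the relevant markers are those of the chondrocyte, with 11 genes and a median of -0.15, and of the notochord, with 9 and -0.12. In clutch 4, where those collagens were lowest, the median differences were -0.26 for chondrocyte, -0.16 for notochord, -0.26 for muscle and -0.44 for neural markers, and 0.41 for the markers of YSL and liver. In clutches 2 and 3 the chondrocyte medians were -0.12 and -0.07 and the notochord medians 0.02 and 0.03. There the muscle medians were 0.07 and 0.01, the neural medians -0.04 and 0.13, and those of YSL and liver -0.11 and -0.13. Fibroblast and tendon markers had a median of -0.07 over all pools and osteoblast markers one of -0.03. The part of cell composition in the collagen differences was not tested.

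**Figure D5:**
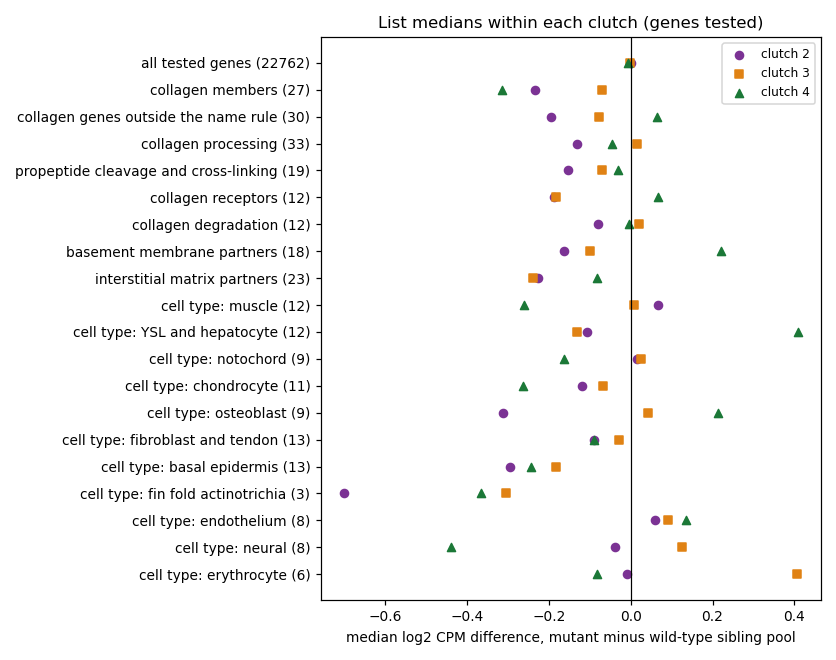
Median log2 CPM difference between mutant and wild-type sibling pools within each clutch for the 27 collagen genes, the 30 collagen genes outside the naming rule and the other gene lists, with the number of genes tested in parentheses. The points of the basal epidermis, actinotrichia, chondrocyte, and fibroblast and tendon lists lie below 0 in all 3 clutches, as do those of the 27 collagen genes. So do those of the lists for cleavage and cross-linking and for interstitial matrix partners. The list of YSL and liver genes is at 0.41 in clutch 4 and at -0.11 and -0.13 in clutches 2 and 3.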

How the data were processed

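RNA was measured in 6 libraries, 3 of *dgat2sa13945* mutant and 3 of wild-type mid-sections. Per the submitters' processing notes, the authors mapped reads to GRCz11 with STAR 2.7.9a and estimated abundance with Salmon 1.10.1. They deposited estimated counts per gene, not scaled for depth, and TPM, in which the authors had corrected for the length of transcripts and for depth. The collagen genes, classes and lists were chosen with earlier results of these data known.

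Estimated counts were rounded and compared with the quasi-likelihood test of edgeR 4.0.16 in R 4.3.3 on all genes, with TMM factors, filterByExpr, genotype as the only term and Benjamini-Hochberg adjustment over the 22762 genes tested. CPM used the same factors, and within-clutch differences are of log2 CPM with a prior count of 2. SEs and 95% intervals came from the test. They cover the spread between pools of 6 embryos. Library totals of at least 45958700 counts leave counting error small for the abundant genes. It is larger for genes such as *col27a1b*, with 267 to 369 counts in a library, and largest for *col5a3a* and *col28a1b*.

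Clutch numbers are shared by both genotypes and mark siblings, so they pair the pools. Deviations from the genotype mean correlated within clutches at 0.35, 0.31 and 0.19 and between clutches at -0.30 to 0.03. The deviations of a genotype sum to 0 for each gene, so these values are not independent of each other. Alternatives were the clutch as a block, DESeq2 1.42.0 with or without transcript length offsets, other factors and filters, limma 3.58.1 on log2 TPM with a pseudocount of 1 or 0.1 (genes reaching 1 TPM in 3 or more libraries), and leaving out each pool or clutch. The combination of length offsets and block was added after seeing the data. The tests were tried on simulated data in which 200 genes changed by a log2 of 2 up or down, without a clutch effect. Those changes were larger than the collagen differences, so the trial does not speak to differences of that size. Named collagen genes were the 1 or 2 most abundant of each structural subclass, the 10 with the smallest p and those without overlap in CPM. Of the lists of genes that act on or accompany collagens, the 2 with the smallest p are named. Of the cell type lists only some of these are named, and those left out had fold changes on both sides of 0. Further members and markers are named for their role, and those of the collagen genes outside the rule were chosen after their values were seen. No sequences are shown, and no genome coordinates were used.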

Additional observations from a re-analysis of the deposited data

How the results depend on the processing

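Under every setting most collagen genes had a fold change below 0, from 22 to 26 of the 27 (25 of 26 with a filter of 1 CPM, 24 of 25 with enough TPM in limma). The clutch as a block changed the number called only in DESeq2, from 0 to 4, or to 3 with length offsets, and with edgeR it left 0 called and 7 at an unadjusted p under 0.05. The block changed no other call of a collagen gene. Over all genes, 3 were called, against 77 with the block in edgeR, 160 in DESeq2, 363 in DESeq2 with the block, 167 with length offsets, 359 with both, 9 with no count filter and 6 in limma on log2(TPM + 0.1). Leaving out pools or clutches gave 0 to 4 called genes overall and 0 collagen genes. The collagen genes with an unadjusted p under 0.05 then numbered 3 to 13, with 13 without the mutant pool of clutch 3 (where 2.27% of all genes were lower at that threshold), and 3 without the mutant pool of clutch 4 or the wild-type pool of clutch 2. The median of all 27 ranged from -0.31 (without the mutant pool of clutch 3) to -0.13 (without that of clutch 4), that of the fibrillar class from -0.32 to -0.11 (the same pools), that of the basement membrane class from -0.26 (without the mutant pool of clutch 3) to -0.12 and that of the other types from -0.44 to -0.20 (the latter without the mutant pool of clutch 2). Over the same settings the fold change of *col2a1a* ranged from -0.356 to 0.0167, that of *col9a1b* from -0.193 to 0.0456 and that of *col9a2* from -0.191 to 0.0393, each above 0 only without clutch 4. The cause of these shifts was not tested. Of the 360 values of the named collagen genes under the alternatives, 350 kept direction and side of the threshold, 3 reversed direction and 7 were called. No named gene was called in the main fit, so keeping that side says little about stability. Precision was limited by 3 pools per genotype, and depth differed between the genotypes, so depth and genotype cannot be told apart.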
